A study of Mus musculus with 18 samples.

Results

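Proteasome genes were taken as the genes of the liver count table whose symbols begin with Psma to Psmg followed by a digit. There were 49 of them among 15572 genes. They comprised 15 genes of the core particle, 17 of the regulatory particle, 5 of the immunoproteasome, 3 for other activators and an inhibitor, and 7 for assembly chaperones. The remaining 2 symbols matched the pattern by name but encode no subunit, Psmc3ip and the Psme2 copy Psme2b. All 49 passed the filter on low counts and had an annotated transcript start, so no member was lost before testing.

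The mice were c57bl/6j, and wild-type (WT) animals were compared with JMJD1C-LKO animals, in which a floxed Jmjd1c allele had been crossed with Cre driven by the albumin promoter, a promoter of hepatocytes. Which cells of these livers lost the gene was not tested. JMJD1C is a demethylase reported to act on histone H3 dimethylated at lysine 9 (H3K9me2). The study asked how it shapes liver gene expression on feeding. RNA-seq compared 2 WT with 2 JMJD1C-LKO refed samples, each made from pooled RNA, ATAC-seq covered livers of fasted WT mice and of refed mice of both genotypes, and H3K9me2 ChIP-seq covered livers of WT mice in both feeding states, with 2 mice in each group of the last 2 assays. All groups had chow for 6 to 8 weeks and an overnight fast. The labels give 6 h of refeeding on a high-carbohydrate diet, whereas the methods give 8 to 16 h and an age of 12 weeks. The fasted and refed groups were taken from the sample titles, as the labels give the same refeeding treatment to all samples.

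The 26S proteasome degrades proteins tagged with ubiquitin. Its barrel-shaped 20S core has outer alpha rings that gate the channel and inner beta rings that hold the proteases, and the 19S regulatory particle binds, unfolds and feeds in the substrate through a ring of ATPases. In leukocytes and under interferon, the standard proteases Psmb5, Psmb6 and Psmb7 give way to Psmb8, Psmb9 and Psmb10, and the 11S activator genes Psme1 and Psme2 are raised. The resulting immunoproteasome favours peptides for MHC class I. In most cells the core and regulatory genes are transcribed together, with the factor Nfe2l1 raising them when proteasome activity is short.

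Promoters of 7 genes are shown here with RefSeq sequence of GRCm38.p6, from 250 bases before the transcript start to 50 after it, on the strand of the gene. The first 4 are the standard and immunoproteasome genes of the 2 pairs in which the immunoproteasome gene changed in RNA-seq, and the other 3 belong to the 3 subunit genes with an ATAC summit in both fasted livers. Capitals mark 4 motifs searched on both strands, namely the antioxidant response element core TGACNNNGC bound by Nfe2l1 and related factors, the CCAAT box CCAAT bound by NF-Y, the E-box CACGTG bound by USF factors and the interferon-stimulated response element core, a pair of GAAA repeats spaced by 2 free bases. No base in these 7 promoters fell in more than 1 motif.
Psmb9 (beta1i), chr17:34187281-34187580, minus strand: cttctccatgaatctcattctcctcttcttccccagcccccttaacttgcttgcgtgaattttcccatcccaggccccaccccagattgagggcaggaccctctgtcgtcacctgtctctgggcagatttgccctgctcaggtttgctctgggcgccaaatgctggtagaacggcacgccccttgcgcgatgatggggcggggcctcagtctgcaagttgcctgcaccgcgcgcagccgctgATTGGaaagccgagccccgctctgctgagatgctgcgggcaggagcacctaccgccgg
Psmb6 (beta1), chr11:70525107-70525406, plus strand: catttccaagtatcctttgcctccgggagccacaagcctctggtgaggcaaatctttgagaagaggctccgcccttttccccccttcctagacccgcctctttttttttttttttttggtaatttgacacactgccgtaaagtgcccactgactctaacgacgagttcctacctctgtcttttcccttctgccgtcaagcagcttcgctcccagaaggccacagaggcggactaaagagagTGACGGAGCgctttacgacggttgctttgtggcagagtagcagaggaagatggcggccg
Psmb8 (beta5i), chr17:34197945-34198244, plus strand: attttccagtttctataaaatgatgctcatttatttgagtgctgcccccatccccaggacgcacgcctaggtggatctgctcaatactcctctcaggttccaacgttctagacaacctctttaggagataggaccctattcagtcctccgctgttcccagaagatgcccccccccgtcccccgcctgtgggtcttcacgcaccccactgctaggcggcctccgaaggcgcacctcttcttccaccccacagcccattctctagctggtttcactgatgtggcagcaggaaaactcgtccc
Psmb5 (beta5), chr14:54617946-54618245, minus strand: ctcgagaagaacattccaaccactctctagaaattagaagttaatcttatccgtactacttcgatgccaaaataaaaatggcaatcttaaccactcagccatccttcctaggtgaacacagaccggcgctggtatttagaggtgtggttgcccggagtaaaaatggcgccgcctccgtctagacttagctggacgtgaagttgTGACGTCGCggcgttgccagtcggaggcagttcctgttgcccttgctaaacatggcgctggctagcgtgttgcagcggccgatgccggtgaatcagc
Psmb3 (beta3), chr11:97703184-97703483, plus strand: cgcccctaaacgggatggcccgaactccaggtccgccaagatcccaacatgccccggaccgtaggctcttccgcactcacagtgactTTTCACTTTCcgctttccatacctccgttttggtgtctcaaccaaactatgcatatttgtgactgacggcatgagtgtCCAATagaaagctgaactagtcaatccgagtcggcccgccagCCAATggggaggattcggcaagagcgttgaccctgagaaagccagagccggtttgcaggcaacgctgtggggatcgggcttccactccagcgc
Psmd1 (Rpn2), chr1:86064369-86064668, plus strand: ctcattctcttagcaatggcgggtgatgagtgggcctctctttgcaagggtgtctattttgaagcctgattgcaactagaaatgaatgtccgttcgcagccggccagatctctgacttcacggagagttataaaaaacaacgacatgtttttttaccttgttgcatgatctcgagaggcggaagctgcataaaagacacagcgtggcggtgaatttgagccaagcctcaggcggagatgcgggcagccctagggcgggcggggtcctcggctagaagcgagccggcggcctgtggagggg
Psmc6 (Rpt4), chr14:45329574-45329873, plus strand: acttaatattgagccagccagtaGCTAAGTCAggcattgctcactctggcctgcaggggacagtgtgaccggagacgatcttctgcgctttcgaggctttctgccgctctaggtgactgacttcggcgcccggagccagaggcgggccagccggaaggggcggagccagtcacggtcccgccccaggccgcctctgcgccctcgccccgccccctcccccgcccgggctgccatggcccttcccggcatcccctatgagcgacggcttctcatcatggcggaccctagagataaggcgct

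In these windows Psmb9 held 1 CCAAT box, read on the opposite strand 8 bases before its start, while Psmb6 and Psmb5 each held 1 antioxidant response element core, 9 and 47 bases before the start. Psmc6 held 1 antioxidant response element core as well, read on the opposite strand 227 bases before its start. Psmb8 and Psmd1 held none of the 4 motifs. Psmb3 held 2 CCAAT boxes, 85 and 43 bases before its start, and 1 interferon-stimulated core 163 bases before it. Over the 41 members found in the promoter table, the antioxidant core was present in 6 of them (14.6%), against 3781 of all 27025 genes in the table, and the CCAAT box in 14 (34.1%, against 41.1% of all genes). The E-box was present in 4 members (9.76% against 8.09%) and the interferon-stimulated core in 5 (12.2% against 3.99%), namely Psmb3, Psmd4, Psmd9, Psme1 and Psmg4. Among the 10974 genes of the promoter table that were tested in RNA-seq, the shares were 16.9%, 42.6%, 11.4% and 3.98% in that order. The CCAAT box was found in 6 of 11 core and 4 of 14 regulatory genes. These matches describe letters in a window and do not show binding.

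Before the comparison of genotypes, the targeted gene was examined in every library. Jmjd1c stood at 21.99 and 22.78 CPM, counts scaled to library size, in the WT libraries and at 20.04 and 20.49 CPM in the libraries labelled JMJD1C-LKO. The log2 fold change was -0.14 ± 0.08 (SE), which did not pass the threshold (edgeR quasi-likelihood F test, Benjamini-Hochberg adjusted p = 0.233). The table counts whole transcripts and does not resolve the deleted exons, and other checks of the deletion were not analysed here. The genotype is therefore given as the labels state it, and every direction below is that of the libraries labelled JMJD1C-LKO. Total counts lay between 51265128 and 54400509 per library, and the median log2 fold change of the 14151 genes tested was 0.01.

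Proteasome genes that passed the test were mostly lower, and 2 of the 3 exceptions were immunoproteasome proteases. Of the 49 members, 18 were lower in the libraries labelled JMJD1C-LKO and 3 were higher at an adjusted p under 0.05, against 13.4% of all genes tested lower and 14.6% higher. The median log2 fold change over the members was -0.19, and 41 of them lay below 0, where 6994 of all 14151 genes tested did. Both JMJD1C-LKO libraries lay below both WT libraries for 35 members, where 33.8% of all genes tested did so, and above both for 6, where 33.7% did. These members are strongly expressed, 36 of them falling in the highest of 4 equal classes of genes by WT level. In that class 24.4% of all genes were lower, and 16 of its 36 members were. The median log2 fold change of all genes in the class was -0.072.

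The count of lower genes rested on both WT libraries. Without WT replicate 1 it was 2 (Psmc2 and Psmd5), against 3.28% of all genes, and without WT replicate 2 it was 4 (Psmb3, Psmc2, Psmc6 and Psmd1), against 2.81% of all genes. The 3 higher genes, Psmb8, Psmb9 and Psmd9, passed in each of the 9 alternative fits, and Psmc2 was the only lower gene that did.

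**Figure D1:**
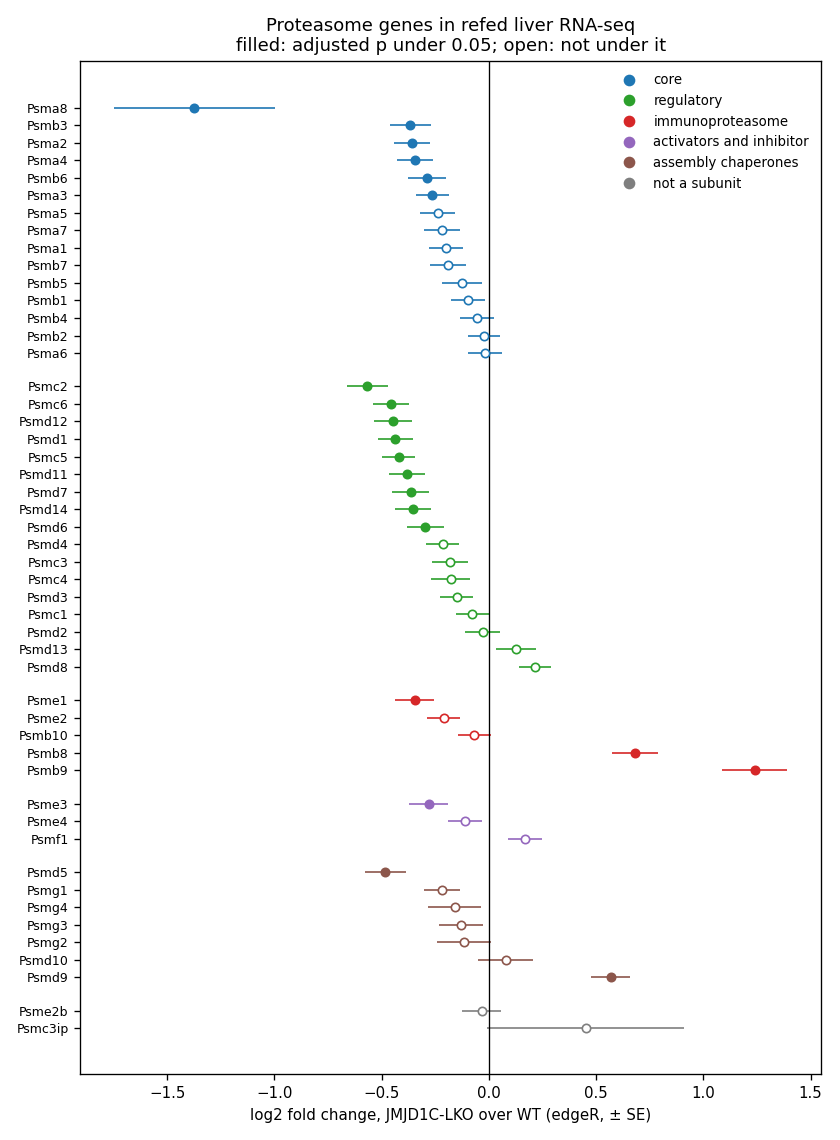
Log2 fold change of each of the 49 proteasome genes, JMJD1C-LKO over WT refed liver, with its standard error; filled points have an adjusted p under 0.05 and colours mark the gene groups. Core and regulatory genes sit left of 0 with 2 exceptions, Psmd13 and Psmd8, and Psmb9 and Psmb8 sit farthest to the right.

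The core genes build the proteolytic barrel. All 15 had a log2 fold change below 0, where 6994 of 14151 genes tested did, and their median was -0.22. Past the threshold 6 were lower and none was higher, where 13.4% of all genes tested were lower. The summed level of the 15 was 2051 and 1901 CPM in the WT libraries and 1766 and 1680 CPM in the JMJD1C-LKO libraries, so the groups did not overlap. Without the barely expressed Psma8, 5 of the other 14 were lower (35.7%), where 24.4% of genes in the highest class by WT level were.

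Among the alpha ring genes, Psma2, Psma3 and Psma4 fell. Psma2 was at 123.8 and 112.5 CPM in WT and at 95.2 and 88.9 in JMJD1C-LKO, a log2 fold change of -0.36 ± 0.08 (SE, adjusted p = 0.0124 by edgeR). Psma4 was at 185.4 and 175.6 CPM in WT and 149.1 and 135.4 in JMJD1C-LKO, with -0.34 ± 0.08 (adjusted p = 0.0145). Psma3 was at 104.8 and 103.7 CPM in WT and 89.4 and 84.2 in JMJD1C-LKO, with -0.26 ± 0.08 (adjusted p = 0.0307). For each of these 3 genes both JMJD1C-LKO libraries lay below both WT libraries. The same held for 6 of the 7 alpha ring genes and for 33.8% of all genes tested. Psma6, at the other end of the ring, was at 127.1 and 132.4 CPM in WT and 132.4 and 123.7 in JMJD1C-LKO, with overlapping groups and a log2 fold change of -0.02.

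Psma8, a paralog of Psma7 used in testis, was barely expressed. It was at 0.984 and 0.997 CPM in WT and at 0.304 and 0.454 CPM in JMJD1C-LKO, and its log2 fold change of -1.37 ± 0.37 (adjusted p = 0.0231) was the lowest of the family. Its per-length level in WT was 1.01 TPM, which scales counts to both transcript length and library size, where the other 14 core genes lay between 75.1 and 384 TPM in the first WT library.

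Psmb3, a structural beta subunit, was at 160.8 and 136.0 CPM in WT and at 117.0 and 113.3 CPM in JMJD1C-LKO, with a log2 fold change of -0.37 ± 0.09 (adjusted p = 0.0181). Psmb1, Psmb2 and Psmb4 of the same ring class had log2 fold changes of -0.10, -0.02 and -0.06, none past the threshold.

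Of the standard proteases only Psmb6, the caspase-like beta1 subunit, passed the threshold. It was at 197.9 and 172.2 CPM in WT and 153.6 and 149.4 in JMJD1C-LKO, with a log2 fold change of -0.29 ± 0.09 (adjusted p = 0.0372). Psmb5, the chymotrypsin-like beta5 subunit, was at 152.6 and 129.3 CPM in WT and 128.5 and 130.2 in JMJD1C-LKO, so that the groups overlapped (-0.12 ± 0.09, adjusted p = 0.355). Psmb7, the trypsin-like beta2 subunit, was at 185.0 and 171.1 CPM in WT and 162.3 and 150.0 in JMJD1C-LKO (-0.19 ± 0.08, adjusted p = 0.123). Whether Psmb6 differed from the other proteases in its change was not tested.

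The regulatory particle recognises and unfolds substrates. Of its 17 genes, 9 were lower and none was higher, against 13.4% of all genes tested lower and 24.4% in the highest class by WT level. Their median log2 fold change was -0.30. The summed level was 2240 and 2173 CPM in WT and 1942 and 1806 CPM in JMJD1C-LKO. The lower genes were Psmc2, Psmc5 and Psmc6 of the 6 base ATPases, Psmd1 of the 3 other base genes, and Psmd6, Psmd7, Psmd11, Psmd12 and Psmd14 of the 8 lid genes. Without WT replicate 1 only Psmc2 of these 9 and none of the 6 core genes passed, and whether the particles differed was not tested. The lid contains the deubiquitinase Psmd14, which removes the ubiquitin chain before the substrate enters the core.

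Psmc2, the Rpt1 ATPase, had the lowest log2 fold change of this particle. It was at 144.1 and 138.5 CPM in WT and 103.3 and 87.5 CPM in JMJD1C-LKO, a change of -0.57 ± 0.09 (SE, adjusted p = 0.00252 by edgeR). Psmc6 was at 98.6 and 93.8 CPM in WT and 73.8 and 66.3 in JMJD1C-LKO, with -0.46 ± 0.08 (adjusted p = 0.00410). Psmc5 was at 121.5 and 118.0 CPM in WT and 91.0 and 87.9 in JMJD1C-LKO, with -0.42 ± 0.08 (adjusted p = 0.00393). The ATPase genes Psmc1, Psmc3 and Psmc4 had log2 fold changes of -0.08, -0.18 and -0.18, short of the threshold. For all 6 base ATPases both JMJD1C-LKO libraries lay below both WT libraries, where 33.8% of all genes tested did so.

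Psmd1, the large scaffold subunit Rpn2, was at 226.3 and 210.9 CPM in WT and at 165.7 and 157.3 CPM in JMJD1C-LKO, with a log2 fold change of -0.44 ± 0.08 (adjusted p = 0.00427). Psmd12, a lid scaffold gene, was at 107.8 and 113.1 CPM in WT and 86.8 and 75.4 in JMJD1C-LKO, with -0.45 ± 0.09 (adjusted p = 0.00616). Psmd8, another lid gene, went the other way. It was at 110.9 and 109.0 CPM in WT and 126.9 and 128.4 CPM in JMJD1C-LKO, and its log2 fold change of 0.22 ± 0.08 just missed the threshold (adjusted p = 0.0598). Psmd2, the other large scaffold gene, was at 167.5 and 167.4 CPM in WT and 171.0 and 157.1 in JMJD1C-LKO, with a change of -0.03.

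The genes within each particle differed several-fold in their level per transcript length, although their products are used in equal numbers. In the first WT library the 14 widely expressed core genes ran from 75.1 TPM (Psma3) to 384 TPM (Psmb4) with a median of 275 TPM, and the 17 regulatory genes from 54.5 TPM (Psmd13) to 257 TPM (Psmc1) with a median of 119 TPM. The median core level was 258 TPM in the second WT library and 233 and 228 TPM in the JMJD1C-LKO libraries. The regulatory median was 118 TPM in the second WT library and 94.9 and 87.9 TPM in the JMJD1C-LKO libraries. For both particles the medians of the groups did not overlap.

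Of the 5 immunoproteasome genes 2 rose and 1 fell, against 14.6% of all genes tested higher and 13.4% lower. The proteases Psmb8 and Psmb9 rose, the activator gene Psme1 fell, and Psmb10 and Psme2 did not pass the threshold. Over the 5 genes the median log2 fold change was -0.07 and the mean 0.26, so that the sign depended on the summary. Psmb9, the beta1i protease, was at 7.14 and 5.46 CPM in WT and at 13.6 and 16.2 CPM in JMJD1C-LKO, a log2 fold change of 1.24 ± 0.15 (SE, adjusted p = 0.000593 by edgeR). Psmb8, the beta5i protease, was at 31.3 and 28.3 CPM in WT and 43.1 and 52.3 in JMJD1C-LKO, with 0.68 ± 0.11 (adjusted p = 0.00185). For both genes the JMJD1C-LKO libraries lay above the WT libraries without overlap, as they did for 33.7% of all genes tested.

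Psmb10, the beta2i protease, was at 33.9 and 33.0 CPM in WT and at 31.9 and 32.0 CPM in JMJD1C-LKO, with a log2 fold change of -0.07 ± 0.08 (adjusted p = 0.562). Psme1, the alpha subunit of the 11S activator, was at 146.2 and 127.3 CPM in WT and 103.4 and 111.6 in JMJD1C-LKO and fell, with -0.35 ± 0.09 (adjusted p = 0.0202). Psme2, the beta subunit of the activator, was at 87.0 and 82.8 CPM in WT and 75.5 and 71.2 in JMJD1C-LKO, with -0.21 ± 0.08 (adjusted p = 0.0720). The copy Psme2b had 22.6 ± 1.82 CPM in WT and 22.04 ± 0.28 CPM in JMJD1C-LKO (SD, n = 2). Its only transcript carries fractional counts, so reads shared with Psme2 may have been divided between the copies and both values are uncertain.

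Each immunoproteasome protease was then set against the standard protease that it replaces. The ratio of Psmb9 to Psmb6 in TPM was 0.0464 and 0.0408 in WT and 0.114 and 0.139 in JMJD1C-LKO, 2.9 times the WT mean. The ratio of Psmb8 to Psmb5 was 0.146 and 0.156 in WT and 0.239 and 0.286 in JMJD1C-LKO, 1.74 times the WT mean. The ratio of Psmb10 to Psmb7 was 0.140 and 0.147 in WT and 0.150 and 0.163 in JMJD1C-LKO, 1.09 times the WT mean. In all 4 libraries each standard gene exceeded its immunoproteasome counterpart. An exact two-sided permutation test of 2 against 2 libraries cannot go below p = 0.333, so these ratios carry no test.

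**Figure D2:**
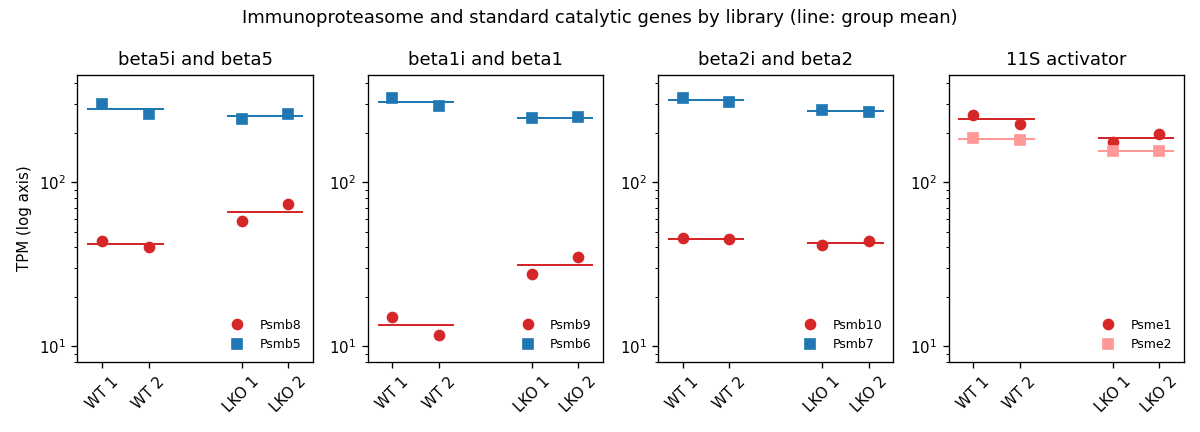
Level in TPM on a log axis of each immunoproteasome protease (circles) with the standard protease it replaces (squares), and of the 11S activator genes, in the 2 WT and 2 JMJD1C-LKO refed libraries; lines are group means. Psmb9 and Psmb8 are higher in both JMJD1C-LKO libraries, Psmb10 stays between 41.4 and 45.4 TPM, and Psme1 and Psme2 are lower.

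Markers of other liver cells moved in the same libraries, where 14.6% of all genes tested were higher. All 9 Kupffer cell and macrophage markers were higher, with summed levels of 284 and 291 CPM in WT and 551 and 794 CPM in JMJD1C-LKO and a median log2 fold change of 1.40. Of 6 general leukocyte markers 5 were higher, with sums of 116.9 and 115.6 CPM in WT and 149.6 and 171.4 CPM in JMJD1C-LKO. The other, Lcp1, made up most of the sums in WT and did not pass the threshold (log2 fold change -0.12). It was at 86.2 and 86.0 CPM in WT and 82.9 and 76.1 CPM in JMJD1C-LKO. Of 9 lymphocyte markers 3 were higher, with sums of 5.79 and 5.62 CPM in WT and 10.9 and 13.1 CPM in JMJD1C-LKO, and of 5 endothelial markers 4 were higher, with sums of 82.8 and 84.95 CPM against 112.7 and 147.8 CPM.

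None of these markers was at 0 in any library. Adgre1, which encodes the macrophage protein F4/80, had 163 and 212 counts in WT and 621 and 1198 in JMJD1C-LKO, and Cd3e, a T cell receptor component, had 24 and 44 counts in WT and 64 and 107 in JMJD1C-LKO. Of the JMJD1C-LKO libraries, replicate 2 held the higher level of Psmb8 and Psmb9 and also the higher summed level of the macrophage markers. In WT the first library held the higher level of Psmb8 and Psmb9, and the second the higher summed level of the macrophage markers. The part of these cells in the immunoproteasome result was not tested, and in bulk liver more cells of a type and more RNA per cell cannot be told apart. Of 8 hepatocyte markers 2 were higher, Cps1 and Tat, and none was lower.

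The other proteasome genes changed in both directions. Psmd9, a chaperone in the assembly of the regulatory base, was at 39.4 and 38.9 CPM in WT and at 53.5 and 62.5 CPM in JMJD1C-LKO, a log2 fold change of 0.57 ± 0.09 (SE, adjusted p = 0.00225 by edgeR). Psmd5, which acts in the same assembly, was at 32.0 and 35.1 CPM in WT and 25.6 and 22.4 in JMJD1C-LKO, with -0.48 ± 0.10 (adjusted p = 0.00584). The third chaperone of the base, Psmd10, was at 7.72 and 8.82 CPM in WT and 8.62 and 8.84 in JMJD1C-LKO, with overlapping groups. Psmg1, Psmg2, Psmg3 and Psmg4, which assemble the core, had log2 fold changes between -0.22 and -0.12, none past the threshold.

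Psme3, a nuclear activator of the core, was at 57.5 and 65.4 CPM in WT and 52.7 and 48.5 in JMJD1C-LKO, with a log2 fold change of -0.28 ± 0.09 (adjusted p = 0.0441). Psmf1, an inhibitor of the core, was at 33.9 and 32.4 CPM in WT and 36.6 and 37.9 in JMJD1C-LKO, with 0.17 ± 0.08 (adjusted p = 0.144). Psmc3ip, which acts in meiotic recombination and shares only the name, stayed below 0.4 CPM in all 4 libraries.

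Genes around the proteasome were read from a list of 53 partners, of which 12 were higher (22.6%), 15 lower (28.3%) and 26 not past the threshold, against 14.6% of all genes tested higher and 13.4% lower. Of 11 proteasome-bound factors 4 were lower (36.4%), among them the ubiquitin receptor Adrm1 (-0.39 ± 0.08, adjusted p = 0.00533 by edgeR), the deubiquitinase Usp14 and the thioredoxin-like Txnl1 (-0.50 ± 0.10, adjusted p = 0.00533). Of 12 shuttle and p97 genes 6 were lower (50.0%), with the largest falls for Ubxn4 (-0.55 ± 0.08, adjusted p = 0.00169) and Nsfl1c (-0.44 ± 0.08, adjusted p = 0.00312). None of these 23 genes was higher.

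Of 11 transcription factors and their processing genes 3 were higher (27.3%) and 2 lower (18.2%). Nfe2l1 was at 97.7 and 90.1 CPM in WT and at 116 and 144 CPM in JMJD1C-LKO, with a log2 fold change of 0.47 ± 0.11 (adjusted p = 0.0105). Ddi2, the protease that processes it, was also higher (0.33 ± 0.08, adjusted p = 0.0157), as was its partner Mafk. The NF-Y subunit Nfyb and the repressor Keap1 were lower.

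Among 13 partners of the immunoproteasome 8 were higher (61.5%) and 2 lower (15.4%). The peptide transporter Tap1 rose by a log2 fold change of 1.07 ± 0.13 (adjusted p = 0.000524), the MHC class I regulator Nlrc5 by 0.93 ± 0.10 (adjusted p = 0.000312), the class I gene H2-D1 by 0.72 ± 0.11 (adjusted p = 0.00152) and H2-K1 by 0.65 ± 0.10 (adjusted p = 0.00177). Irf8, an interferon regulatory factor of myeloid cells, rose by 1.17 ± 0.18 (adjusted p = 0.00181). The chaperones Calr and Pdia3 of the peptide-loading complex fell, Pdia3 by 0.70 on the log2 scale (SE 0.12, adjusted p = 0.00243). Irf1 did not pass the threshold (-0.15, adjusted p = 0.189).

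Psmb9 and Tap1 start 226 bp apart on opposite strands, and the Tap1 start lies within the Psmb9 promoter printed above. Both genes lie on chromosome 17 beside Psmb8 (34198195 to 34201454) and Tap2 (34204479 to 34216321) in the MHC region of GRCm38. In all, 9 members had a divergent neighbour within 1000 bp. Psmc5 and its neighbour Ftsj3, 101 bp away, both fell (-0.42 and -0.49), and so did Psmc2 and Dnajc2, 110 bp away (-0.57 and -0.31). Psma2 fell while Mrpl32, 205 bp away, did not pass the threshold (-0.22, adjusted p = 0.129). Neither gene passed in the pairs of Psma7 with Ss18l1, Psmd10 with Atg4a, Psmd13 with Sirt3, Psme2 with Rnf31 and Psmg2 with Cep76. Signs were opposite for Psma7 (-0.22) with Ss18l1 (0.04) and for Psmd10 (0.08) with Atg4a (-0.21). Of all genes tested 13.4% were lower and 14.6% higher, and whether neighbours changed together was not tested. A summit between such starts cannot be given to 1 of the 2 genes.

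ATAC summits, the positions of strongest accessibility in each called peak, were called at a minority of promoters, of proteasome genes as of all genes. Within 1000 bp of a start, 13 and 7 of the 49 genes had a summit in the fasted WT mice (26.5% and 14.3%), where 3147 and 1436 of all 26180 annotated genes did. Refed WT mice had 6 such genes each (12.2%), against 9.94% and 6.24% of all genes, and refed JMJD1C-LKO mice 2 each (4.08%), against 4.06% and 0.886%. Of genes tested in RNA-seq, the shares were 20.2% and 9.28%, 16.7% and 10.5%, and 6.66% and 1.31% in that order. The lists themselves differed in length. They held 5220 and 7632 summits in fasted WT, 5027 and 3119 in refed WT, and 1450 and 825 in refed JMJD1C-LKO mice. Read depth is unknown from such lists, so a missing summit means only that no peak was called, and the smaller count in JMJD1C-LKO livers cannot be told apart from their shorter lists.

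In both replicates, 4 members had a summit in WT fasted liver (Psmb3, Psmc6, Psmd1 and Psmd10), where 4.36% of all 26180 annotated genes did. In WT refed liver there were 3 (Psmb3, Psmd3 and Psmg2, against 4.78%) and in JMJD1C-LKO refed liver none, against 0.397%. Among genes tested in RNA-seq the shares were 7.36%, 8.07% and 0.564%. The members' shares in the WT groups were 8.16% and 6.12%.

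Psmb3 was the only member with a summit in all 4 WT livers. Its strongest summits lay 165 bp after the start in the first fasted liver and 132, 147 and 120 bp before it in the other 3, upstream of both CCAAT boxes printed above. They ranked 4950 of 5220 and 595 of 7632 in the fasted livers, and 2479 of 5027 and 1292 of 3119 in the refed livers. The first of them was thus near the end of its list. Psmd1 had summits 50 and 162 bp before its start in the fasted livers and 164 bp before it in the second refed liver, where it ranked 308 of 3119. Psmc6 had its strongest summits 308 and 212 bp before its start in the fasted livers, and none in the refed livers. Of the immunoproteasome genes, Psmb9 and Psme2 had a summit in the first fasted liver, and Psme2 in the second JMJD1C-LKO liver. Psmb8, Psmb10 and Psme1 had none in any of the 6 livers. The Psmb9 summit lay 208 bp before its start, between Psmb9 and Tap1.

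**Figure D3:**
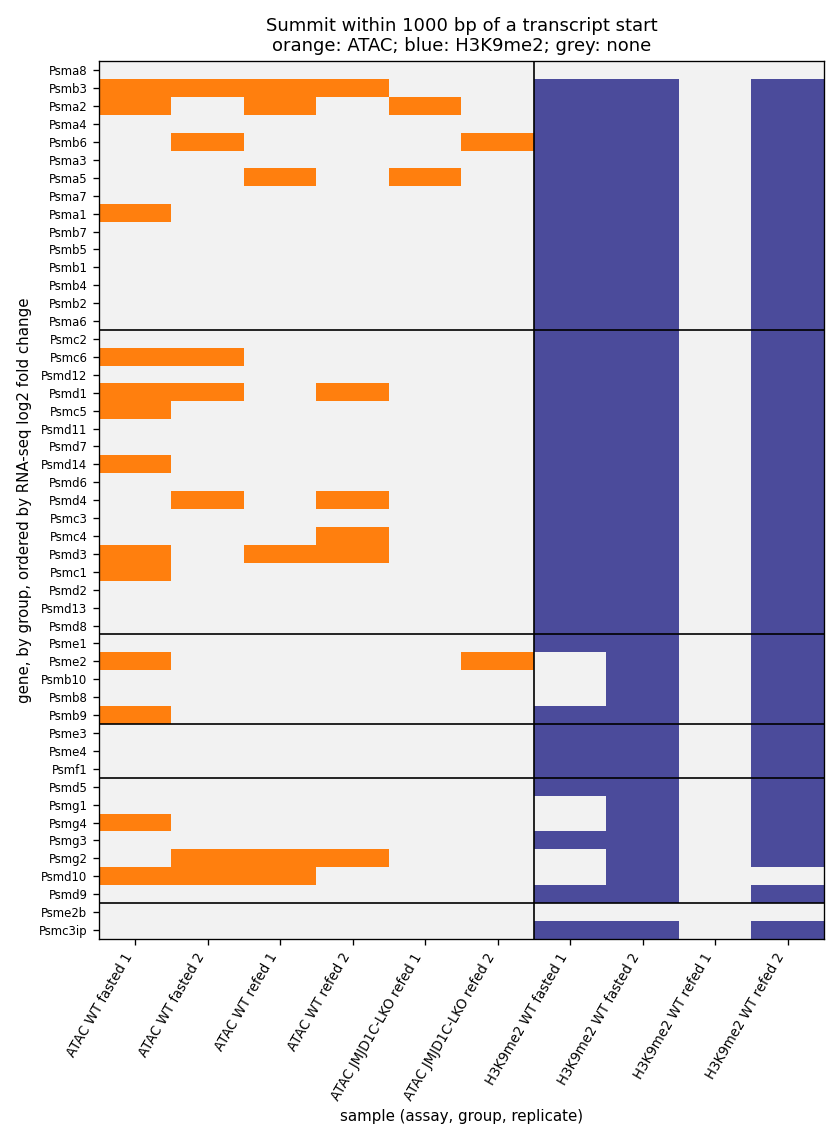
Presence of a summit within 1000 bp of a transcript start for each of the 49 genes (rows, by group) in each of the 6 ATAC and 4 H3K9me2 samples (columns). H3K9me2 fills nearly every row in 3 samples and none in WT refed replicate 1, while ATAC summits are scattered and Psmb3 alone has one in all 4 WT livers.

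H3K9me2 summits, in contrast, were found at nearly every proteasome promoter in 3 of the 4 livers. In WT fasted liver 40 and 47 of the 49 genes had a summit within 1000 bp of a start, and 40 had one in both replicates (81.6%), where 29.1% of all annotated genes and 51.3% of genes tested in RNA-seq did. All 14 widely expressed core genes and all 17 regulatory genes were among the 40. Of the 5 immunoproteasome genes Psmb9 and Psme1 had a summit in both fasted livers, and all 5 had one in fasted replicate 2 and in refed replicate 2. Psma8 and Psme2b had none in any liver. Presence of a summit rose with expression over all genes tested, as 83.9% of genes in the highest of 4 classes by WT level and 10.5% in the lowest had a summit in both fasted livers. In the highest class 35 of 36 members had one.

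The WT refed livers did not match each other. Replicate 2 had a summit at 46 of the 49 genes (93.9%), where 35.1% of all annotated genes and 61.6% of genes tested in RNA-seq did, and replicate 1 at none. Replicate 1 held 1297 summits, while replicate 2 held 9929 and the fasted livers 7690 and 13456, and only 61 genes of the whole annotation had one at a start there. The count in both refed livers was therefore 0 of 49, where 0.042% of all genes were called, and without replicate 1 it was 46. Fasted and refed liver could therefore not be compared at these promoters. The fasted counts were 47 without replicate 1 and 40 without replicate 2.

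H3K9me2 is known as a broad mark of silent chromatin, yet these summits sat just inside the starts of expressed genes. For the 40 members in the first fasted liver the median position of the strongest summit was 279 bp after the start, and 35 of the 40 lay 100 to 500 bp after it. The medians were 267 bp over 47 members in the second fasted liver and 294 bp over 46 members in the second refed liver. Over all genes with a summit the medians were 254, 224 and 260 bp. ATAC summits instead lay mostly before the start, with medians over the members between 50 and 162 bp before it in the 4 WT livers. Whether the antibody signal at these positions was H3K9me2 was not tested.

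**Figure D4:**
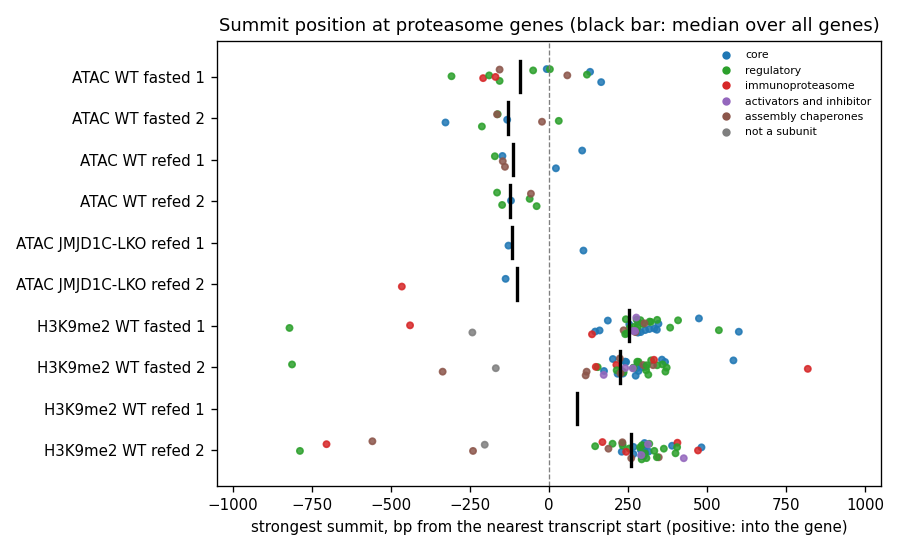
Position of the strongest summit at each proteasome gene in bp from the nearest transcript start, positive into the gene, for each sample; points are genes coloured by group and black bars the median over all genes. In the WT livers the ATAC medians over the members lie 50 to 162 bp before the start, and the H3K9me2 medians 267 to 294 bp after it in the 3 livers with many summits, while WT refed replicate 1 has no point.

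The H3K9me2 summits at core and regulatory genes were also among the stronger ones. By score, the −log10 of the q-value, the median core gene ranked in the top 13.3% of summits in the first fasted liver, 11.5% in the second and 18.6% in the second refed liver. The regulatory genes ranked in the top 15.8%, 9.41% and 16.3%. Over all genes with a summit the medians were 44.7%, 36.8% and 42.0%. The highest members were Psmb4 in the first fasted liver (top 1.2%), Psmc4 in the second (0.728%) and Psmd11 in the second refed liver (0.735%). Immunoproteasome genes ranked lower, with median positions in the top 77.3% (2 genes), 34.0% (5 genes) and 44.6% (5 genes). None of these ranks was compared with those of genes of like WT level.

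Psmb8 and Psmb9, the genes that rose in RNA-seq, had H3K9me2 summits that varied between livers. Psmb8 had none in the first fasted liver, and summits 228 and 406 bp after its start in the second fasted and second refed livers with scores of 11.2 and 17.1. Psmb9 had its strongest summit 439 bp before the start in the first fasted liver, which is on the Tap1 side, and 213 bp after it in the second. Their scores were 7.84 and 47.8. In the second refed liver Psmb9 had summits 703 bp before the start, also on the Tap1 side, and 147 bp after it, with scores of 15.8 and 13.3. No H3K9me2 data of JMJD1C-LKO liver were analysed here, so the mark could not be compared between genotypes.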

How the data were processed

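RNA-seq, ATAC-seq and H3K9me2 ChIP-seq of mouse liver were used, with 2 samples in each group. RNA-seq values were deposited as estimated counts, 1 row for each RefSeq transcript, without scaling. The aligner and counter of the RNA-seq are not given in the sources used here beyond the tools HISAT2 and Partek Flow in the submitters' processing notes. For ATAC-seq (BWA) and ChIP-seq (Bowtie2, unique reads, input as control) the authors called peaks in each sample with MACS2 2.1.1 and deposited the summits with the −log10 of the q-value. A deposited table of the authors' own comparison, holding p-values and fold changes, was not used. The build is GRCm38.p6.

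Counts were summed per gene, rounded and tested with edgeR 4.0.16 (TMM, filterByExpr, quasi-likelihood F test, Benjamini-Hochberg over 14151 genes, threshold 0.05), after the same steps were tested on simulated data. CPM used TMM-scaled totals and TPM the RefSeq transcript lengths, known for 98.8% of transcripts. RNA was pooled, so p-values measure the spread between pools. Summits were assigned to RefSeq starts within 1000 bp, and scores were ranked only inside a sample. Promoter sequences from RefSeq were matched for 41 of 49 genes.

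Values are given in full for the immunoproteasome and standard protease genes, for up to 5 members of smallest p per group and direction past the threshold, for the ends of each group, for Jmjd1c, and for up to 5 partners in each direction. Psmd2, Psmd10, Nfe2l1, Ddi2 and Irf1 were added after their values were seen. The members and lists were chosen with earlier results of these data known.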

Additional observations from a re-analysis of the deposited data

How the results depend on the processing

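The counts of 18 lower and 3 higher proteasome genes were recomputed with DESeq2's size factors, with DESeq2, with no filter on low counts, with the most abundant transcript of each gene and with each library left out. With a library left out the lower count ranged from 2 to 24 (2 without WT replicate 1, 4 without WT replicate 2) and the higher count from 3 to 4, and a lone sample was assumed to vary like the other group. Under the other alternatives the lower count was 13 to 18 and the higher count 3. The same replicate numbers in WT and JMJD1C-LKO pair no samples by the labels, and the deviations of same-numbered samples had a correlation of -0.00461 over 14151 genes. A fit with a replicate block gave 18 lower and 3 higher genes. With a library left out the median log2 fold change ranged from -0.27 to -0.16 for core genes, from -0.39 to -0.21 for regulatory genes and from -0.090 to -0.052 for immunoproteasome genes. Signs turned only for genes far from the threshold. With the most abundant transcript the log2 fold change was 0.014 for Psmd2, 0.011 for Psmg3 and 0.10 for Jmjd1c. With a library left out it ranged from -0.076 to 0.030 for Psma6, -0.12 to 0.0036 for Psmb4, -0.10 to 0.030 for Psmd2, -0.017 to 0.17 for Psmd10 and -0.12 to 0.049 for Psme2b. The cause was not tested.

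Counts of promoters moved more. A score of at least 5 left 1 promoter with an ATAC summit in fasted WT mice. Equal numbers of strongest summits in each list left 0 in fasted WT, 0 in refed WT and 13 for H3K9me2 in fasted WT mice. A summit in either replicate gave 16, 9 and 4 promoters for ATAC in fasted WT, refed WT and refed JMJD1C-LKO mice, and 46 for H3K9me2 in refed WT mice. With 1 replicate left out the ATAC counts were 7 to 13 in fasted WT, 6 in both refed WT mice and 2 in both refed JMJD1C-LKO mice, and the H3K9me2 counts 40 to 47 in fasted and 0 to 46 in refed WT mice. The summit lists carry no read depth, so the cause was not tested.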
